A study of Mus musculus with 16 samples.

Results

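The subject is a list of 50 mouse genes of mitosis and cytokinesis, the steps in which a cell separates its copied chromosomes and divides, measured in hepatic stellate cells, the vitamin A storing pericytes of the liver. A gene was taken up when the platform annotation gave at least 1 probe set its symbol and no other, and the probe set with the highest mean over all 16 arrays stood for the gene. This gave 49 of the 50 genes, out of 18193 genes on the array. Ccnb1, which encodes cyclin B1, is not analysed here.

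RNA of 16 stellate cell preparations was hybridised to 1 oligonucleotide array each, and the values are deposited log2 expression values, so that a difference of 1 is a doubling. All cells came from male Balb/c mice of 8 to 10 weeks, were enriched by density centrifugation, and macrophages were removed by their surface marker F4/80. Quiescent cells (5 arrays) came from normal mice and were plated for 24 h. Culture cells (3 arrays) were kept on plastic with 10% fetal bovine serum for 5 days. Coculture cells (2 arrays, numbered 2 and 3) were kept for the same 5 days in the same serum in the presence of Kupffer cells (hepatic macrophages), which a transwell insert kept out of contact. The design text lists 3 coculture samples, and 1 of them was not analysed here. In vivo activated cells came from mice 15 days after bile duct ligation (3 arrays), a model of biliary fibrosis, or after 4 doses of the hepatotoxin CCl4 (carbon tetrachloride, 0.5 µl/g, 3 arrays), a model of toxic fibrosis. Like the quiescent cells, they were taken 24 h after isolation. Nothing in the labels ties a preparation to an animal of its own, so the p-values below cover variation among samples that may be technical.

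Entry into mitosis is driven by the kinase CDK1 bound to A and B cyclins, which activates Polo and Aurora kinases, condenses the chromosomes and builds the spindle. The spindle checkpoint holds cells in metaphase until every kinetochore is attached, and the anaphase-promoting complex, switched on by Cdc20, then destroys securin and cyclin B. Most of these genes are transcribed only late in the cell cycle, so their transcripts are scarce in resting cells, and stellate cells, which rest in the healthy liver, enter the cell cycle when they become myofibroblasts.

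Of 9 stellate cell markers, 9 reached log2 5 on at least 1 array of every group except CCl4, where Lrat, the gene of retinol esterification, did not and 8 reached it. Correlations between arrays over the tested genes lay between 0.929 and 0.983 within a group and between 0.773 and 0.969 across groups. Of 16 macrophage markers, 12 were below log2 5 on every array, among them Adgre1 (which encodes F4/80) and the Kupffer cell lectin Clec4f, both below log2 3. The lysosomal gene Cd68 was at log2 5 or more on every array outside culture (group means 7.02 in quiescent, 3.74 in culture, 7.82 in coculture, 6.34 after bile duct ligation and 7.06 after CCl4), and the lysozyme gene Lyz2 had means of 2.02, 4.94, 5.49, 5.91 and 5.46. Cd14 reached 6.06 on CCl4 replicate 3, and Cd5l 5.30 on bile duct ligation replicate 2. The summed level of the 16 was 30.21 to 33.50 in quiescent, 28.41 to 32.39 in culture, 35.74 to 38.92 in coculture, 38.56 to 54.69 after bile duct ligation and 38.59 to 46.57 after CCl4. The summed level of 8 hepatocyte markers was 12.06 to 17.78, 12.12 to 16.09, 12.18 to 13.69, 23.46 to 27.87 and 30.36 to 47.38 in the same order, with 5 of them, led by the albumin gene Alb, at log2 5 or more in CCl4. The 10 endothelial markers were below log2 5 on every array, and summed to 27.50 on bile duct ligation replicate 2 and 14.48 to 18.97 on the other arrays. The 6 mesothelial and portal fibroblast markers summed to 8.25 to 9.91, 9.69 to 10.47, 9.59 to 9.70, 14.11 to 17.96 and 17.65 to 26.48. Of 4 cholangiocyte markers, Krt19 reached log2 5 on both coculture arrays, while Epcam, Krt7 and Cldn4 were near background everywhere. The part of such cells in the results below was not tested, and in bulk RNA fewer cells of a type and less RNA per cell cannot be told apart.

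The mitosis genes were near the floor of the method in quiescent cells and higher in the 4 activated groups, most of all in coculture. The floor is near log2 2, where unexpressed probe sets lie, so a difference that starts there depends on the background estimate. The median of the 49 genes was 1.95 to 2.30 on the quiescent arrays, 3.21 to 3.44 in culture, 4.69 and 6.87 in coculture, 3.28 to 3.74 after bile duct ligation and 3.46 to 4.58 after CCl4. The number of genes at log2 5 or more was 6 to 7, 10 to 12, 21 and 42, 13 to 18 and 16 to 20 per array. Coculture had the highest group mean for 48 of 49 genes, the exception being Smc4, and quiescent had the lowest for 45. Culture was lowest for Ccnf, Foxm1, Smc2 and Ncapd2.

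**Figure D1:**
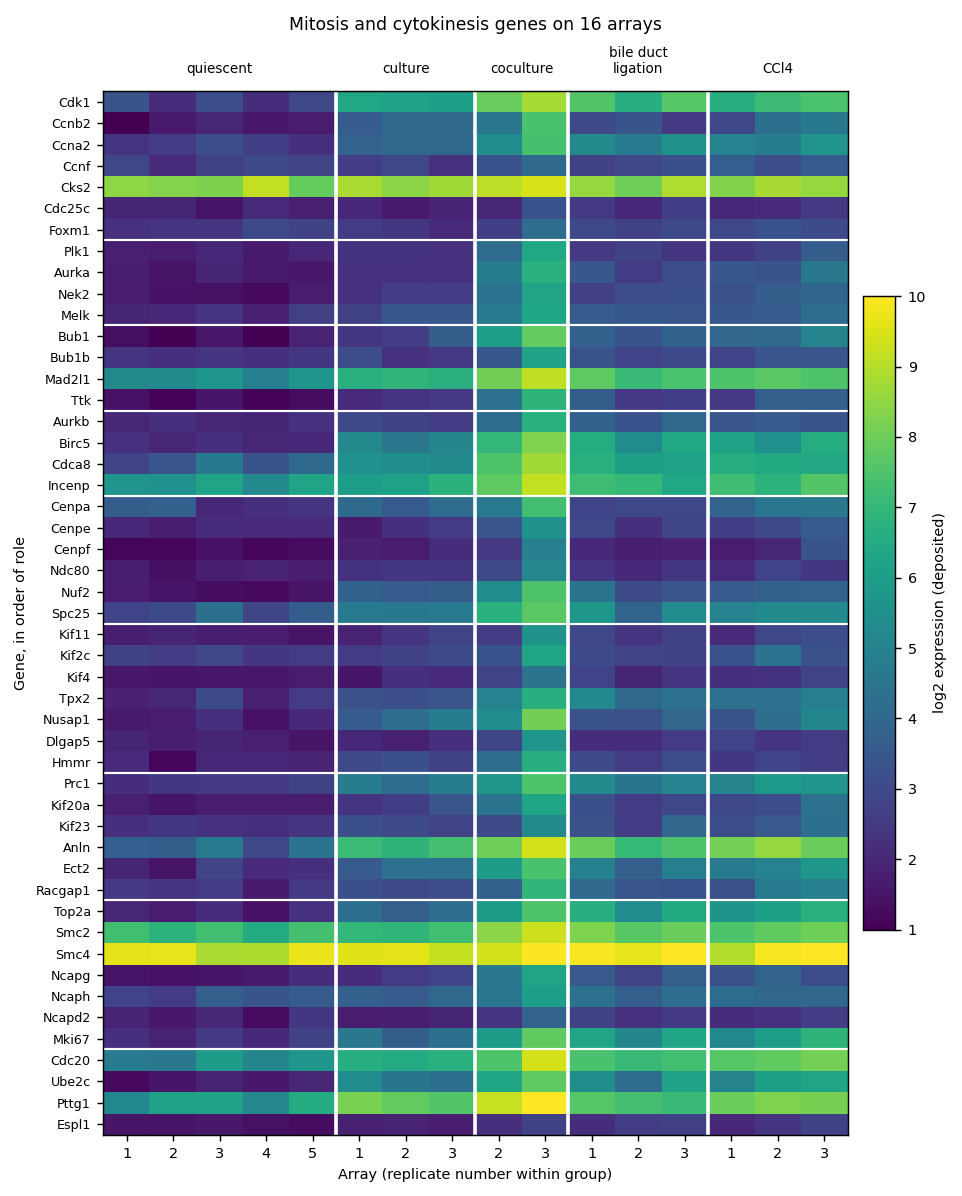
Deposited log2 expression of the 49 genes (rows, grouped by role from mitotic entry at the top to anaphase at the bottom) on the 16 arrays (columns, replicate numbers below, groups above), with colour from dark at log2 1 to yellow at log2 10. The quiescent columns are dark for all but about the genes that reach log2 5 there (6 to 7 per array), and the column of coculture replicate 3 is the brightest, with 42 genes at log2 5 or more.

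Coculture replicate 3 stood apart from coculture replicate 2 for these genes and not for genes at large. It was higher in 49 of 49 genes, by a median of 1.74 (0.32 to 3.12), and by more than 1 in 42 of them (85.7%). Over the 7823 genes with log2 5 or more on at least 2 arrays the median gap was -0.01, and 4.64% exceeded 1. Among 77 other mitotic genes the median gap was 1.00, and among 54 genes of DNA replication and S phase it was 0.68. The 9 stellate cell markers were also higher on replicate 3 (summed level 91.60, against 81.49 on replicate 2), and the macrophage markers were lower (35.74 against 38.92). The part of either in the gap was not tested. Counts of coculture calls are given with and without replicate 3, and the remaining coculture array is then assumed to vary like the other groups. Without it and without a filter, 9 of 46 calls against quiescent cells were lost, those of Ccnf, Cks2, Cenpf, Kif11, Kif2c, Kif23, Racgap1, Ncapd2 and Espl1. Of the 46 differences 16 were over 1.5 times smaller. Against culture 24 of 41 calls were lost, and 25 differences were over 1.5 times smaller.

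**Figure D2:**
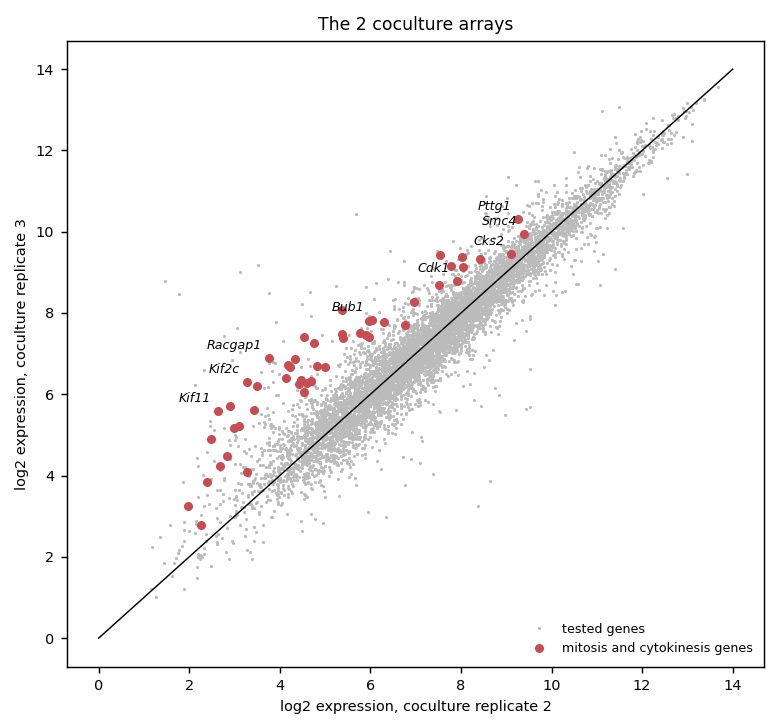
Log2 expression on coculture replicate 2 (horizontal) against coculture replicate 3 (vertical) for the 7823 tested genes (grey) and the 49 mitosis and cytokinesis genes (red), with the line of equal values. All 49 red points lie above the line, at a median of 1.74, while the grey points centre on it (median -0.01).

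The 49 genes were compared between groups with limma over the whole array. A filter of log2 5 on at least 2 arrays left 22 of the 49, and 15 of these passed only with arrays of the activated groups, so counts over them carry that selection. Of the 27 below it, 20 reached log2 5 only on coculture replicate 3, and Ccnf, Cdc25c, Foxm1, Cenpf, Kif4, Ncapd2 and Espl1 reached it nowhere. Counts are therefore given first over all 49 from the fit without a filter, adjusted over 18193 genes, and then over the 22, adjusted over 7823. A gene was called at a Benjamini-Hochberg adjusted p under 0.05. For a single gene the adjusted p comes from the filtered fit where it was among the 22, and from the unfiltered fit otherwise. Tpx2 in culture (adjusted p = 0.0484 with the filter, 0.0606 without), Incenp after bile duct ligation (0.035 and 0.0512) and Smc2 after CCl4 (0.0402 and 0.0635) were called only with it.

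The promoters of the 50 listed genes, called or not, were read for the 2 elements best known in genes of this class. TTTGAA is the cell cycle genes homology region, bound by the DREAM and FOXM1 complexes through LIN54, and CCAAT is the box bound by NF-Y. RefSeq windows of 300 bases (250 before and 50 after the annotated start, GRCm38.p6) were found for 41 of the 50 genes, 43 windows in all. On either strand, TTTGAA stood in 31 windows (72.1%), CCAAT in 33 (76.7%) and both in 28 (65.1%). Among all 32851 promoters of this length the shares were 17.9%, 37.4% and 6.95%. Among 49 windows of S phase genes they were 12.2%, 57.1% and 8.16%, and among 74 of other mitotic genes 50%, 64.9% and 35.1%. No chance test was made of these shares.

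The 250 bases before the start are shown for 5 of the genes described below that carry both elements and for Birc5, in whose window neither was found. They run 5′ to 3′ on the gene's strand, with each match of either element, on either strand, in capitals. The nearest TTTGAA begins 15 bases before the start in Cdk1 (chr10:69352913-69353162, minus strand), 18 in Cdc20 (chr4:118437344-118437593, minus), 29 in Ube2c (chr2:164769679-164769928, plus), 23 in Top2a (chr11:99024190-99024439, minus) and 19 in Kif11 (chr19:37376132-37376381, plus). Top2a and Ube2c each hold 6 matches of CCAAT, and in Ube2c the stretch CCAATTGG is counted on both strands. The Birc5 stretch is chr11:117848987-117849236, plus strand. A match is a description of the letters and not a measured binding site.
Cdk1: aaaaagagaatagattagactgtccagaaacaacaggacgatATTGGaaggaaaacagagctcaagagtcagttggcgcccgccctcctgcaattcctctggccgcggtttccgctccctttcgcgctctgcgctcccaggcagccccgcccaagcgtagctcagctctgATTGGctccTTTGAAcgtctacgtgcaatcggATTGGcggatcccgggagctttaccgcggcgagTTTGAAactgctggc
Cdc20: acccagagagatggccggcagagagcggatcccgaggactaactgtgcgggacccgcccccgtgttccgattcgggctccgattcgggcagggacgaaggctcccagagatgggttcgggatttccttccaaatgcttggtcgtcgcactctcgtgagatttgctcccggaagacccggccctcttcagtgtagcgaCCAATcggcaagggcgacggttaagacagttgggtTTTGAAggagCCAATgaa
Ube2c: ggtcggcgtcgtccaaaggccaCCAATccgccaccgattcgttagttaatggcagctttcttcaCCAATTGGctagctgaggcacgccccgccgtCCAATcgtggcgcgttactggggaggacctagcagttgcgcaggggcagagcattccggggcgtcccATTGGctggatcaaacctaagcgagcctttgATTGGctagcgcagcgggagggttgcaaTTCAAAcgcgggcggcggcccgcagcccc
Top2a: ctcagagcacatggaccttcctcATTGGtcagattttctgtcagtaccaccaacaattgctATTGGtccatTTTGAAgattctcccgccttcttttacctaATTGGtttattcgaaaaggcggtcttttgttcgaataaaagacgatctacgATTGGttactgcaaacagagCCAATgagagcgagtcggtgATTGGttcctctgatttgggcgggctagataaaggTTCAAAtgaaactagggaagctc
Kif11: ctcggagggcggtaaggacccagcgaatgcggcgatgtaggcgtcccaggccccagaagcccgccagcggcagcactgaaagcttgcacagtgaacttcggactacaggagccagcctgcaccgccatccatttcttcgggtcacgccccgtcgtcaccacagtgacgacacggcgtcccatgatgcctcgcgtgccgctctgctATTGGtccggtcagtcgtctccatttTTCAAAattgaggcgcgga
Birc5: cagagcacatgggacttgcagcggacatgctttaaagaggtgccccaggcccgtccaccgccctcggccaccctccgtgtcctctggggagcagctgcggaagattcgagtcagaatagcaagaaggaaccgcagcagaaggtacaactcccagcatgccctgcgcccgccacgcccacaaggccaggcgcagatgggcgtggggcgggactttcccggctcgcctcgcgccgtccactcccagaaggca

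Culture on plastic raised part of the list. Without a filter, 22 of 49 genes were called higher than in quiescent cells and 0 lower (0 lower also at an unadjusted p under 0.05), against 9.49% of all 18193 genes called higher. The median difference was 0.99, against 0.02 over all genes. With the filter 18 of 22 were called higher, against 18.5% of 7823. The 3 largest called increases were those of Cdk1 (3.48 ± 0.32 SE, adjusted p = 1.56e-06, limma), the contractile ring scaffold Anln (3.23 ± 0.38) and Ube2c (3.07 ± 0.45), the ubiquitin-conjugating enzyme of the anaphase-promoting complex. The count of 22 was 14 when 3 arrays (number 4 of quiescent, number 3 of culture, number 3 of CCl4) were left out at once.

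Both injuries also raised part of it, with more calls than culture, a difference in counts that was not tested. After bile duct ligation 26 of 49 genes were called higher and 0 lower, against 4.26% of all genes called higher, and with the filter 20 of 22, against 8.03%. After CCl4 30 of 49 were higher and 0 lower, against 5.16%, and with the filter 20 of 22, against 9.51%. At an unadjusted p under 0.05, 0 genes were lower after either injury. The median differences were 1.32 and 1.75, against 0.01 and -0.01 over all genes. Bile duct ligation had its largest called increases in Cdk1 (4.53 ± 0.32), Top2a (4.26 ± 0.38) and Birc5 (4.00 ± 0.33), and CCl4 in Cdk1 (4.37 ± 0.32), Anln (4.31 ± 0.38) and Top2a (4.27 ± 0.38). CCl4 replicate 3 was the highest of its group for 33 of 49 genes and also had the highest hepatocyte markers (47.38, against 30.36 and 31.09) and mesothelial and portal fibroblast markers (26.48). Without this array 26 of 49 genes were called higher, against 3.48% of all genes. Bile duct ligation replicate 2, with the highest macrophage (54.69), endothelial (27.50) and, within its group, mesothelial and portal fibroblast markers (17.96), was the highest of its group for 3 genes. Hepatocyte, macrophage and mesothelial and portal fibroblast markers were higher on every injury array than on any quiescent array, and their part in these increases was not tested.

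The injuries themselves gave no call on this list. Between bile duct ligation and CCl4, 0 of 49 genes were higher and 0 lower with limma, against 0.0385% and 0.198% of all genes. At an unadjusted p under 0.05, 0 were higher and 2 lower after bile duct ligation without the filter, and 0 and 1 with it. The median difference was -0.19, and 11 of 49 genes were above 0. The largest was that of Cenpa (-1.43 ± 0.53, adjusted p = 0.353).

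Coculture raised nearly the whole list. Of 49 genes, 46 were called higher than in quiescent cells and 0 lower (0 lower also at an unadjusted p under 0.05), against 10.0% of all genes called higher, with a median of 3.38 against 0.01. The 3 not called were Cdc25c, Foxm1 and Smc4. With the filter 21 of 22 were called higher, against 17.8%. The largest called increases were those of Bub1 (5.62 ± 0.49), Cdk1 (5.61 ± 0.36) and Birc5 (5.52 ± 0.38). Without coculture replicate 3 the count was 37 of 49, with a median of 2.39 and 6.31% of all genes called higher.

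Against culture, from which it differed by the macrophages behind the membrane, coculture was higher in 41 of 49 genes and lower in 0 (0 lower also at an unadjusted p under 0.05), against 4.46% of all genes called higher. The median was 2.20, against 0.00 over all genes. With the filter 20 of 22 were higher, against 8.37%, and the largest called differences were those of Bub1 (4.03 ± 0.53, adjusted p = 0.000182, limma), Nuf2 (2.77 ± 0.50) and Mki67 (2.69 ± 0.55). This count rests in part on coculture replicate 3. Without it 17 of 49 genes were called higher (median 1.28, 2.94% of all genes), or 8 of the 20 that then passed the filter. With only the 5 arrays of these groups in the fit, 14 of 49 were called.

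The members are described next by role, in the order of mitosis. Comparisons with quiescent cells share the same 5 quiescent arrays. Counts by role stand beside the shares of all genes called higher than quiescent without a filter. These were 9.49% in culture, 10.0% in coculture, 4.26% after bile duct ligation and 5.16% after CCl4.

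Cdk1, the kinase that drives entry into mitosis, was the most raised gene on the list in culture and in both injuries. It read 3.30, 2.16, 3.12, 2.19 and 2.91 on the quiescent arrays, 6.39, 6.19 and 6.06 in culture, 7.91 and 8.79 in coculture, 7.56, 6.65 and 7.61 after bile duct ligation, and 6.69, 7.18 and 7.46 after CCl4. Every activated array was above every quiescent array, every in vivo array was above every culture array, and both coculture arrays were above all others. Coculture exceeded culture by 2.13 ± 0.40 (adjusted p = 0.00232, limma), or by 1.69 without coculture replicate 3. The cyclins that bind CDK1 followed in part. Ccna2, cyclin A2, rose by 1.36 ± 0.38 in culture, 3.79 ± 0.44 in coculture, 2.59 ± 0.38 after bile duct ligation and 2.58 ± 0.38 after CCl4. Ccnb2, cyclin B2, rose by 2.37 ± 0.49 in culture, 4.41 ± 0.56 in coculture and 2.39 ± 0.49 after CCl4, but was not called after bile duct ligation (1.37 ± 0.49, adjusted p = 0.108).

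Foxm1, the transcription factor that drives many of these genes, stayed near the floor. It read 2.27, 2.40, 2.40, 3.01 and 2.77 in quiescent cells, 2.60, 2.46 and 2.08 in culture, 2.67 and 4.23 in coculture, 2.97, 2.77 and 3.02 after bile duct ligation, and 2.96, 3.28 and 3.08 after CCl4. Every group overlapped the quiescent one, and coculture replicate 3 was the highest array. It was not called in coculture against quiescent (0.88 ± 0.32, adjusted p = 0.0616), but was without quiescent replicate 4 (0.99) or without coculture replicate 2 (1.66). Cks2, a small CDK-binding protein, was high everywhere (7.89 to 9.44 over all arrays) and was called only in coculture against quiescent (0.86 ± 0.29, adjusted p = 0.0296). Cdc25c, the phosphatase that activates CDK1, was called in no comparison with quiescent cells and peaked at 3.26. Ccnf, cyclin F, was called higher in coculture against quiescent (0.96 ± 0.28) and against culture (1.08 ± 0.30), and in neither without coculture replicate 3 (0.56 and 0.68).

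Of the 4 mitotic kinases, 4 were called higher in coculture, 3 after each injury and 2 in culture, without the filter. Plk1, the Polo kinase, read 1.79, 1.70, 2.02, 1.66 and 2.02 in quiescent cells, 2.31, 2.31 and 2.29 in culture, 4.13 and 6.41 in coculture, 2.49, 2.76 and 2.40 after bile duct ligation, and 2.44, 2.74 and 3.67 after CCl4. The coculture arrays were above all others, and the culture and injury arrays lay between 2.29 and 3.67. Plk1 rose by 3.43 ± 0.42 against quiescent and 2.97 ± 0.45 against culture (2.29 and 1.82 without coculture replicate 3), and was not called in culture (0.47 ± 0.36), after bile duct ligation (0.71 ± 0.36) or after CCl4 (1.11 ± 0.36, adjusted p = 0.0638, called without either coculture array). Aurka, the spindle pole kinase, rose by 4.08 ± 0.40 in coculture, 1.37 ± 0.35 after bile duct ligation and 2.10 ± 0.35 after CCl4. Nek2 and Melk, kinases of the centrosome and of proliferating cells, were called higher in all 4 activated groups, by 3.85 ± 0.35 and 3.34 ± 0.37 in coculture.

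**Figure D3:**
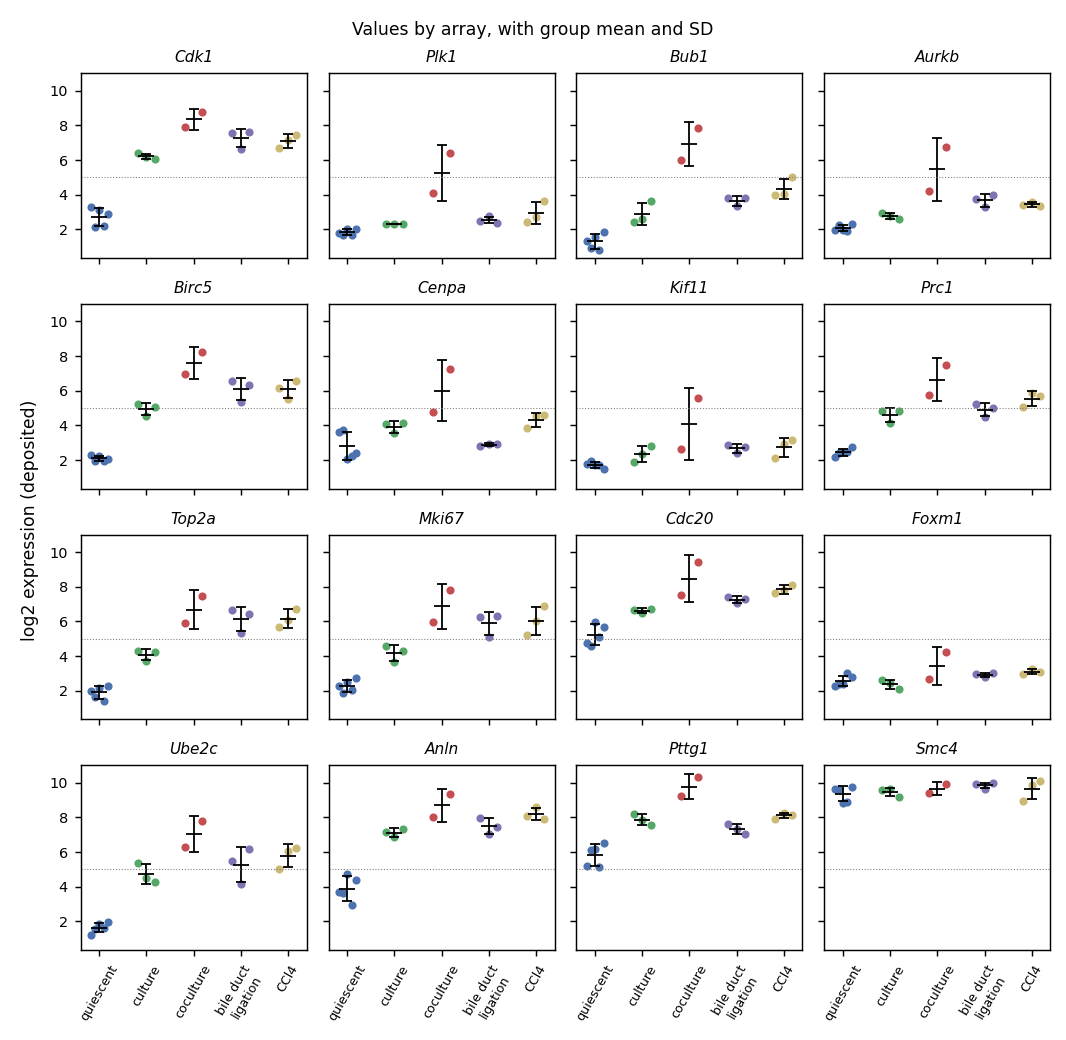
Deposited log2 expression on every array (points) with group mean and SD (black bars) for 16 genes of the list, in 5 groups. The dotted line marks log2 5. Coculture replicate 3 is the highest point for 15 of the 16 genes, and Smc4 is near log2 9 to 10 in all groups.

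Bub1, the checkpoint kinase of the kinetochore, showed the largest difference between coculture and culture. It read 1.34, 0.94, 1.59, 0.83 and 1.87 in quiescent cells, 2.43, 2.63 and 3.64 in culture, 6.03 and 7.83 in coculture, 3.80, 3.33 and 3.80 after bile duct ligation, and 3.96, 4.04 and 5.01 after CCl4. No activated array overlapped the quiescent ones, and both coculture arrays were above all others. The increase in culture (1.58 ± 0.43, adjusted p = 0.00798, limma) was not called without culture replicate 3 (1.21). Mad2l1, the checkpoint protein that restrains Cdc20, was at 4.90 to 5.73 in quiescent cells and rose by 1.40 ± 0.24 in culture, 3.23 ± 0.28 in coculture, 2.06 ± 0.24 after bile duct ligation and 2.19 ± 0.24 after CCl4. Ttk, the kinase MPS1, rose by 4.32 ± 0.49 in coculture, 1.65 ± 0.43 after bile duct ligation and 2.03 ± 0.43 after CCl4. Bub1b, BUBR1, was called only in coculture, against quiescent (2.51 ± 0.46), culture (2.20 ± 0.50) and the mean of the injuries (1.71, or 0.36 without coculture replicate 3). With coculture replicate 3 left out the first was 1.16 and still called, and the second was 0.85 and not called.

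In the chromosomal passenger complex, which corrects faulty attachments and guides cytokinesis, the survivin gene Birc5 moved most. Birc5 read 2.30, 1.95, 2.22, 1.96 and 2.05 in quiescent cells, 5.24, 4.56 and 5.08 in culture, 6.97 and 8.26 in coculture, 6.56, 5.36 and 6.36 after bile duct ligation, and 6.18, 5.53 and 6.58 after CCl4. Every activated array was at least 2 above the quiescent ones, and the in vivo arrays were all above the culture arrays. Aurkb, the kinase of the complex, read 1.97, 2.26, 1.95, 1.93 and 2.30 in quiescent cells, 2.97, 2.78 and 2.59 in culture, 4.19 and 6.73 in coculture, 3.78, 3.28 and 3.99 after bile duct ligation, and 3.40, 3.60 and 3.35 after CCl4. Its groups did not overlap the quiescent one, although it was not called in culture (0.70 ± 0.37, adjusted p = 0.226, but called without either coculture array). The calls of Aurkb after bile duct ligation (1.60 ± 0.37) and CCl4 (1.37 ± 0.37) were lost without bile duct ligation replicate 1 (1.55) or 3 (1.45), and without any CCl4 array (1.29 to 1.42) or quiescent replicate 1 (1.34). Cdca8, borealin, rose by 1.79 ± 0.35, 4.46 ± 0.40, 2.65 ± 0.35 and 2.85 ± 0.35 in culture, coculture, bile duct ligation and CCl4. Incenp, the scaffold, was not called in culture (0.52 ± 0.33) and rose by 2.66 ± 0.38, 1.07 ± 0.33 and 1.41 ± 0.33 in the other 3.

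At the centromere, Cenpa, the histone H3 variant that marks it, was called in coculture and in neither injury. It read 3.65, 3.75, 2.05, 2.23 and 2.39 in quiescent cells, 4.07, 3.54 and 4.13 in culture, 4.76 and 7.26 in coculture, 2.80, 2.94 and 2.94 after bile duct ligation, and 3.87, 4.53 and 4.58 after CCl4. The bile duct ligation arrays lay inside the quiescent range, and the CCl4 arrays above it. Coculture exceeded quiescent by 3.19 ± 0.54 (1.94 without coculture replicate 3), and CCl4 by 1.51 ± 0.47 (adjusted p = 0.054), which was called without quiescent replicate 1 (1.72) or 2 (1.74) or either coculture array. The difference from culture (2.09 ± 0.59, adjusted p = 0.04) fell to 0.84 without coculture replicate 3 and was also not called without any one of 7 other arrays. Nuf2 and Spc25, subunits of the NDC80 complex that holds microtubules, rose in all 4 activated groups, by 2.22 ± 0.40 and 1.32 ± 0.41 in culture and by 4.99 ± 0.46 and 3.89 ± 0.46 in coculture. Ndc80 itself, with Cenpe and Cenpf, which are a kinetochore motor and a kinetochore protein, was called only in coculture against quiescent, by 2.38 ± 0.37, 2.52 ± 0.42 and 2.47 ± 0.46, and in the comparisons of coculture with the other groups. Without coculture replicate 3 these 3 differences from quiescent were 1.29, 1.42 and 1.25, and that of Cenpf was not called. Those from culture went from 1.67, 2.38 and 1.80 to 0.58, 1.29 and 0.58 without this array. Those from the mean of the injuries went from 1.71, 1.64 and 1.60 to 0.62, 0.54 and 0.38.

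Of 7 spindle motors and microtubule binders, 7 were called higher in coculture and 2 each in culture and after either injury, without the filter. Kif11, the motor that pushes spindle poles apart, read 1.77, 1.93, 1.74, 1.72 and 1.48 in quiescent cells, 1.91, 2.38 and 2.83 in culture, 2.64 and 5.58 in coculture, 2.90, 2.40 and 2.74 after bile duct ligation, and 2.10, 2.93 and 3.17 after CCl4. Coculture replicate 2 lay among the culture and in vivo arrays, and replicate 3 was far above. The increase in coculture (2.38 ± 0.50) was not called without replicate 3 (0.91). Nusap1 and Tpx2, which organise spindle microtubules, were called in all 4 activated groups. Nusap1 rose by 2.39 ± 0.52 in culture and 4.91 ± 0.60 in coculture, and Tpx2 by 1.03 ± 0.40 and 3.59 ± 0.45. Hmmr, Dlgap5, Kif2c and Kif4 were called in coculture against quiescent, by 3.61 ± 0.43, 2.52 ± 0.45, 2.15 ± 0.52 and 2.06 ± 0.33, and of these Hmmr also in culture (1.15 ± 0.38). The 4 differences were, with coculture replicate 3 left out, 2.39, 1.12, 0.64 and 1.25, and that of Kif2c was not called.

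In cytokinesis, Prc1, which bundles the microtubules of the central spindle, read 2.18, 2.43, 2.48, 2.49 and 2.74 in quiescent cells, 4.82, 4.16 and 4.83 in culture, 5.77 and 7.51 in coculture, 5.23, 4.50 and 4.98 after bile duct ligation, and 5.04, 5.87 and 5.69 after CCl4. All activated arrays were above log2 4 and all quiescent arrays below 3. The difference of Prc1 between coculture and culture (2.03 ± 0.43) was not called without coculture replicate 3 (1.17). Anln rose in every group to 6.86 or more, from 2.95 to 4.76 in quiescent cells, and had its highest value, 9.38, on coculture replicate 3. Ect2, the exchange factor that starts the furrow, rose by 1.99 ± 0.41, 4.58 ± 0.48, 2.41 ± 0.41 and 3.04 ± 0.41 in culture, coculture, bile duct ligation and CCl4. Kif20a, Kif23 and Racgap1, which act at the central spindle, were called in coculture and after CCl4. The differences were 3.72 ± 0.43, 1.83 ± 0.44 and 3.02 ± 0.59 in coculture and 1.81 ± 0.37, 1.32 ± 0.38 and 1.97 ± 0.51 after CCl4. Kif20a was also called in culture (1.12 ± 0.37). Without coculture replicate 3 the coculture differences were 2.77, 0.77 and 1.46, and those of Kif23 and Racgap1 were not called.

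Top2a, the topoisomerase that untangles sister chromosomes, and Mki67, which coats them and is the Ki-67 antigen of pathology, separated culture from in vivo activation most. Top2a read 1.97, 1.67, 2.14, 1.43 and 2.30 in quiescent cells, 4.30, 3.73 and 4.21 in culture, 5.90 and 7.47 in coculture, 6.67, 5.36 and 6.45 after bile duct ligation, and 5.67, 6.11 and 6.73 after CCl4. Mki67 read 2.26, 1.87, 2.48, 2.02 and 2.74 in quiescent cells, 4.58, 3.67 and 4.32 in culture, 5.96 and 7.80 in coculture, 6.24, 5.12 and 6.31 after bile duct ligation, and 5.20, 6.01 and 6.87 after CCl4. For both genes the culture arrays lay above all quiescent and below all in vivo arrays. The difference of Mki67 between coculture and culture was not called without coculture replicate 3 (1.77). The condensin subunits went different ways. Smc4 stayed at 8.86 to 10.13 on every array and was called in no comparison (0.11 ± 0.26 in culture, 0.32 ± 0.30 in coculture), while its partner Smc2 was not called in culture (-0.02 ± 0.24, adjusted p = 0.962) and rose by 1.82 ± 0.27 in coculture, 0.89 ± 0.24 after bile duct ligation and 0.72 ± 0.24 after CCl4. A second Smc2 probe set at log2 5 or more on 6 arrays read -0.65 in culture and 1.72 and 1.54 after the injuries. Ncapg, a condensin I subunit, rose by 3.78 ± 0.37 in coculture, 1.70 ± 0.32 after bile duct ligation and 1.75 ± 0.32 after CCl4.

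Of the 4 genes of anaphase, 4 were called higher in coculture and after either injury, and 3 in culture. Cdc20, the activator of the anaphase-promoting complex, read 4.76, 4.59, 5.99, 5.09 and 5.70 in quiescent cells, 6.66, 6.50 and 6.73 in culture, 7.53 and 9.42 in coculture, 7.43, 7.06 and 7.28 after bile duct ligation, and 7.62, 7.80 and 8.13 after CCl4. Ube2c read 1.24, 1.55, 1.86, 1.63 and 1.97 in quiescent cells, 5.38, 4.50 and 4.28 in culture, 6.29 and 7.78 in coculture, 5.48, 4.18 and 6.18 after bile duct ligation, and 5.03, 6.08 and 6.24 after CCl4. No activated array of either gene overlapped the quiescent ones, and Ube2c of culture overlapped both injuries. The differences of Cdc20 and Ube2c between coculture and culture (1.85 ± 0.46 and 2.31 ± 0.56) were not called without coculture replicate 3 (0.90 and 1.57). Pttg1, securin, the guard of sister chromatid cohesion, was already at 5.17 to 6.54 in quiescent cells. It rose by 2.02 ± 0.31 in culture, 3.94 ± 0.36 in coculture, 1.49 ± 0.31 after bile duct ligation and 2.26 ± 0.31 after CCl4. A second Pttg1 probe set at log2 5 or more on 7 arrays read 1.55, 3.76, 0.65 and 2.05 in the same order. Espl1, separase, which securin restrains, peaked at 2.79 and was called higher in coculture (1.05 ± 0.20), bile duct ligation (1.04 ± 0.18) and CCl4 (0.92 ± 0.18), but not in culture (0.33 ± 0.18). Its call in coculture was lost without coculture replicate 3 (0.78).

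Culture was then set against the mean of the 2 injuries, a comparison added after the group levels were seen. Without the filter, 12 of 49 genes were lower in culture and 0 higher (0 higher also at an unadjusted p under 0.05), with a median of -0.63, whereas 13.1% of all genes were called higher and 12.6% lower. The 12 were Top2a (-2.09 ± 0.35), Mki67 (-1.77 ± 0.41), Tpx2 (-1.27 ± 0.36), Ccna2 (-1.22 ± 0.35), Birc5 (-1.13 ± 0.32), Aurka (-1.13 ± 0.34), Bub1 (-1.09 ± 0.38), Cdk1 (-0.98 ± 0.30), Cdca8 (-0.96 ± 0.33), Smc2 (-0.82 ± 0.23), Mad2l1 (-0.73 ± 0.24) and Espl1 (-0.65 ± 0.17). For Ccna2, a second probe set at log2 5 or more on 5 arrays read only -0.32. Ccnb2 (0.49 ± 0.48), Nusap1 (0.35 ± 0.47), Cenpa (0.30 ± 0.46), Hmmr (0.20 ± 0.37) and Pttg1 (0.14 ± 0.30) were the largest of 7 differences above 0, and none of them was called. This count moved with single arrays. It was 7 without culture replicate 1, 4 without culture replicate 2, 20 without coculture replicate 2 and 21 without coculture replicate 3. Coculture set against the same mean was higher in 33 of 49 genes and lower in 0 (0 lower also at an unadjusted p under 0.05), against 8.13% and 6.56% of all genes. Without coculture replicate 3 the 33 fell to 7 of 49 (median 0.57, 3.60% of all genes called higher).

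**Figure D4:**
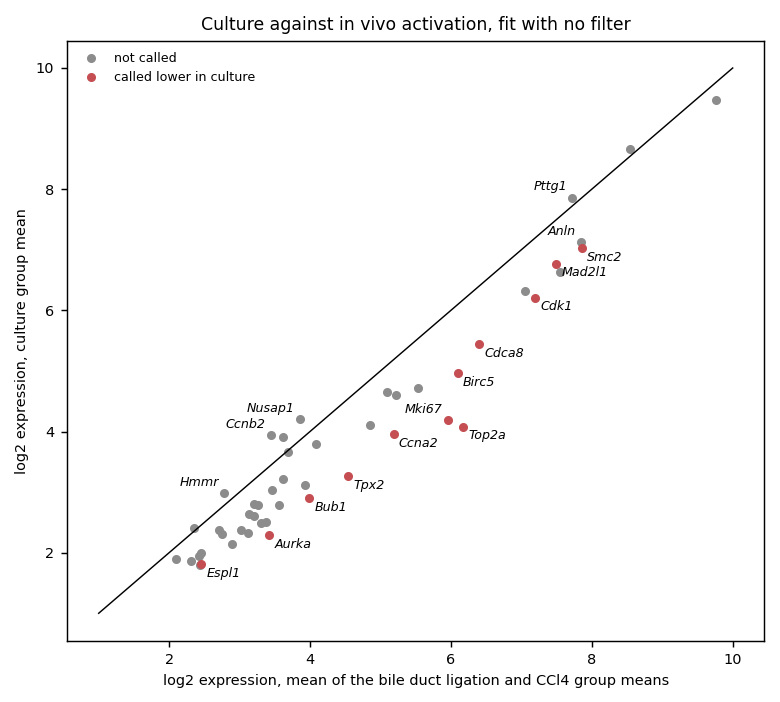
Group mean log2 expression in culture (vertical) against the mean of the bile duct ligation and CCl4 group means (horizontal) for the 49 genes, with the line of equal values. The 12 genes called lower in culture without the filter are red, and Top2a and Mki67 lie farthest below the line (-2.09 and -1.77).

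Genes of DNA replication and S phase, which act before mitosis, were set beside the list. In culture 3 of 54 were called higher and 11 lower than in quiescent cells (median -0.17), against 9.49% and 9.94% of all genes, where the mitosis genes had 22 of 49 higher and 0 lower. The 3 were 5 without either coculture array, and the 11 were 7 without culture replicate 1 or 2. The S phase genes with the smallest p in the filtered fit were Cdt1 (-1.97 ± 0.28) and Mcm2 (-1.44 ± 0.21), which license origins, among those lower, and Rpa1 (1.19 ± 0.21) and Rrm2 (2.01 ± 0.38) among those higher. Against the mean of the injuries 38 of 54 were lower in culture and 1 higher (12.6% and 13.1% of all genes), led by Cdc6 (-3.03 ± 0.27) and Cdt1 (-2.91 ± 0.27). After bile duct ligation 26 and after CCl4 23 of 54 were higher than quiescent and 0 lower (12 after CCl4 without CCl4 replicate 3), against 4.26% and 5.16% of all genes higher and 3.62% and 4.73% lower. In coculture 35 of 54 were higher than quiescent and 1 lower, and 39 were higher than in culture (21 and 17 without coculture replicate 3), against 10.0% and 8.85% of all genes higher and lower than quiescent and 4.46% higher than culture. Against the injuries 5 of 54 were higher in coculture (1 without replicate 3 and 9 without replicate 2), where the mitosis genes had 33 of 49 (7). The difference between the lists was not tested.

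**Figure D5:**
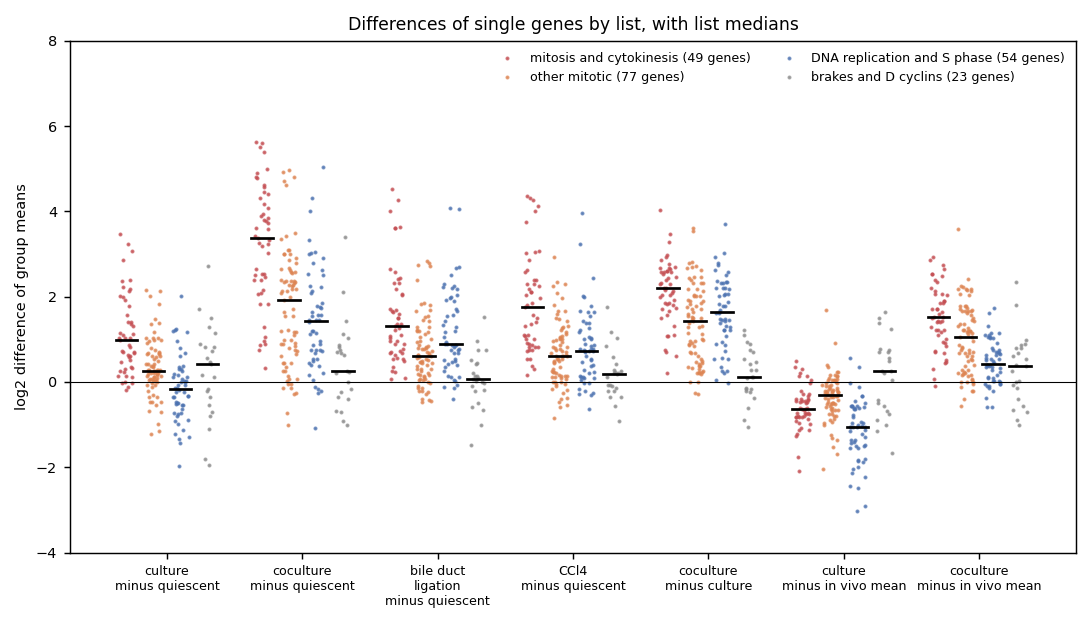
Log2 difference of group means (vertical) for single genes of 4 lists (points, with the list median as a bar) in 7 comparisons. The mitosis and cytokinesis genes have a median of 0.99 in culture against quiescent, where the S phase genes have -0.17, and both medians are below 0 in culture against the in vivo mean (-0.63 and -1.06).

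The other 77 mitotic genes had smaller medians. They had 11 higher and 7 lower in culture (median 0.26, the 11 being 17 without either coculture array and 6 without culture replicate 3), 57 and 1 in coculture (1.92, or 38 and 1 without coculture replicate 3), 23 and 1 after bile duct ligation (0.61, or 14 higher without bile duct ligation replicate 1) and 24 and 2 after CCl4 (0.61). Of all genes, 9.49% were higher and 9.94% lower in culture, and 10.0% and 8.85% in coculture. The shares were 4.26% and 3.62% after bile duct ligation, 5.16% and 4.73% after CCl4, and 4.46% higher in coculture against culture. The 7 genes lower in culture were near the share of all genes. The kinase gene Pbk led in culture (2.16 ± 0.39), coculture (4.98 ± 0.44) and bile duct ligation (2.84 ± 0.39), and the abscission gene Cep55 led after CCl4 (2.92 ± 0.38). Zwint, a kinetochore gene, was lower in culture (-0.71 ± 0.10), bile duct ligation (-0.44 ± 0.10) and CCl4 (-0.59 ± 0.10). Between coculture and culture 44 of 77 were higher and 0 lower, and 14 without coculture replicate 3. After CCl4 the 24 were 13 without CCl4 replicate 2 or 3.

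The machinery around mitosis was counted in the same way, beside 9.49% of all genes higher and 9.94% lower in culture, 10.0% and 8.85% in coculture, 4.26% and 3.62% after bile duct ligation and 5.16% and 4.73% after CCl4. Of 15 subunits and partners of the anaphase-promoting complex, which Cdc20 and Ube2c serve, 3 were higher and 0 lower in culture, 2 and 1 in coculture, 0 and 0 after bile duct ligation and 0 and 1 after CCl4. Of 13 cohesin genes, which hold the sister chromatids, 2 and 3, 2 and 3, 1 and 1, and 0 and 0 were higher and lower in the same order. The 23 brakes and D cyclins are a list that also holds the kinase genes Cdk2, Cdk4 and Cdk6. Of them, 7 were higher and 5 lower in culture, led by Ccng2 (2.71 ± 0.39) and Ccnd1 (-1.81 ± 0.30), and 9 and 1 in coculture. After bile duct ligation 0 were higher and 1 lower, and after CCl4 2 and 0 (0 or 1 higher without any one of 8 arrays). Of 26 regulators of the mitotic gene programme, 3 were higher and 2 lower in culture, 7 and 1 in coculture, 3 and 1 after bile duct ligation and 2 and 1 after CCl4. These small counts moved with single arrays. With 1 array left out, the counts higher in culture were 0 to 3 for the complex (0 without culture replicate 2, and 1 without culture replicate 1 or 3 or quiescent replicate 1) and 0 to 4 for cohesin (0 without culture replicate 3, 1 without culture replicate 2, and 4 without either coculture array). The cohesin genes lower in culture were 1 without culture replicate 2 or quiescent replicate 2, and the brakes and D cyclins lower in culture were 3 without culture replicate 3. Without coculture replicate 3 the coculture counts were 0 and 2 for the complex, 1 and 2 for cohesin, 5 and 1 for the brakes and D cyclins, and 4 and 0 for the regulators. The 2 genes of the complex higher in coculture were 0 or 1 without any one of 12 arrays. Without coculture replicate 2 the brakes and D cyclins higher in coculture were 3, and the complex had 0 and 0. Among the regulators E2f7, a repressing member of the E2F family, rose in all 4 groups (1.95 ± 0.47, 3.18 ± 0.54, 3.05 ± 0.47 and 2.22 ± 0.47). Myc was lower in culture (-2.38 ± 0.45) and coculture (-1.92 ± 0.51), and Mybl2, the B-Myb partner of FOXM1, stayed near the floor (group means 1.46 to 2.03).

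Several probe sets of a gene mostly pointed the same way, counted over those that reached log2 5. The 49 genes had 112 probe sets, and 35 genes had more than 1. Of 18 other probe sets at log2 5 or more on at least 1 array, in 14 genes, 16 had the sign of the one used in culture against quiescent, 18 in coculture against quiescent and against culture, 16 after bile duct ligation and 18 after CCl4. The sign was shared by 18 in culture against the in vivo mean, 16 in coculture against it and 14 between the injuries. Most of the 18 reached log2 5 on 1 array only, and these differed from quiescent most in coculture. Choosing them by level thus favours agreement there, and probe sets below log2 5 were not counted.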

How the data were processed

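The authors deposited log2 expression values per probe set, and the submitters' processing notes name GCRMA, which subtracts a background modelled from probe sequence, equalises the arrays by quantiles and summarises probes. For GCRMA, no version or setting is given in the sources used here. Arrays give no read depth, and their number limits the precision. Of 45101 probe sets, 34945 carried 1 gene symbol, giving 18193 genes, each with its probe set of highest mean.

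A limma 3.58.1 model (R 4.3.3, lmFit with 5 group means, eBayes with a trend) was fitted to all 16 arrays, on 7823 genes with log2 5 or more on at least 2 arrays and again on all genes. Tests were two-sided with Benjamini-Hochberg adjustment over all genes fitted. The scripts were tested on simulated data. Promoters came from RefSeq (GRCm38.p6).

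The members and lists were chosen with earlier results of these data known. A set of 13 genes is shown with every array, with the 3 largest called changes per comparison, genes below the filter, genes whose probe sets disagree and, per list, genes of smallest p. Alternatives changed the probe set rule, filter, scaling, weights, prior, samples and pairing, and left out each array. The fits without a filter, both in vivo comparisons and the list counts with an array left out were added after values were seen.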

Additional observations from a re-analysis of the deposited data

Results flagged for a closer look

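In the quiescent group, the only one with enough arrays for this check, 4 members had 1 array far from the other 4. Quiescent replicate 2 was low for Ccnf (2.14, the next at 2.75), Cenpe (1.74, the next at 2.03) and Hmmr (1.15, the next at 1.87). Quiescent replicate 4 was low for Racgap1 (1.64, the next at 2.34). Chance flags about 1 in 20 groups, and 49 members were checked. All of these values lie at or near the floor of the method.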

How the results depend on the processing

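No call of the 13 genes shown array by array reversed under any alternative run, while 38 of their alternative values, in 14 results called in neither fit, had the other sign. Of the results recomputed for these genes 2375 kept their side of the threshold, 62 crossed into a call and 77 out of one. Counts depended on which probe sets and genes were tested. With the mean of all probe sets 15 members were tested, and 13 were higher in each of coculture against culture, bile duct ligation and CCl4. With only probe sets designed for 1 transcript 13 were tested, and 9 were higher in culture, 12 in coculture and 11 each in coculture against culture, bile duct ligation and CCl4 (without a filter 10 of 40 in culture, 16 after bile duct ligation and 17 after CCl4). With a filter at log2 7, 10 were tested, and 6 were higher in culture, 9 in coculture and 8 each in coculture against culture, bile duct ligation and CCl4. Without a filter coculture had 46, and 41 against culture. With only the groups compared in the fit, 14 of 49 were higher in coculture against culture and 20 lower in culture against the in vivo mean. That last count was 23 with array weights and 4 when array 4 of quiescent, 3 of culture and 3 of CCl4 were left out at once, which also gave 14 for culture against quiescent without a filter.

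Leaving out single arrays gave 8 to 20 members higher in coculture against culture (17 to 46 without a filter), 4 to 21 lower in culture against the in vivo mean and 7 to 43 higher in coculture against it. The replicate numbers showed no regular pairing, and 7 of 26 same-numbered pairs had deviations correlated above 0.1 (-0.259 to 0.537, median -0.00646). With so few arrays per group this cannot exclude a pairing. With the replicate block 17 of 22 were higher in culture, 21 in coculture, and 20 each in coculture against culture, bile duct ligation and CCl4. The other counts of members kept within 1.5 times. Signal near the floor limits the 27 genes below the filter, and the 2 coculture arrays limit that group.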
